A study of Mus musculus with 12 samples.

Results

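The genes described here are 10 transcription factors of red cell precursors and blood stem cells, Gata1, Klf1, Tal1, Nfe2, Gfi1b, Zfpm1, Lmo2, Ldb1, Bcl11a and Runx1, taken by symbol from a table of 56832 gene entries. All 10 were in the table and all 10 passed the filter on low counts, which left 15758 genes. RNA was sequenced from mouse bone marrow macrophages sorted as CD45+, F4/80+, Ly6g- and Ly6c-, with 6 libraries from leukemic mice and 6 from non-leukemic mice, 3 of each sex in both. The leukemic mice had received transplanted cells of bcCML, a blast-crisis chronic myeloid leukemia model, and were sampled late in the disease, on day 11. The non-leukemic mice are called healthy in the series' design. Strain, age, any conditioning of either group and whether a library came from 1 animal are not given in the sources used here, so every p below measures the spread between libraries.

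GATA1 and its cofactor FOG1, encoded by Zfpm1, switch on the red cell program. GATA1 works in a complex in which TAL1 and its partners bind DNA and LMO2 and LDB1 hold the parts together. KLF1 binds CACC boxes and activates globin, heme and membrane genes, while GFI1B is a repressor of red cell and platelet precursors. These factors are not confined to red cells. GATA1, FOG1, GFI1B and NFE2 also act in megakaryocytes, GATA1 in mast cells, basophils and eosinophils, BCL11A in B cells and plasmacytoid dendritic cells, and LMO2 and RUNX1 in stem and progenitor cells.

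Total counts were 22437689 to 30014855 in the leukemic and 16911827 to 26611831 in the non-leukemic libraries, and each of the 10 genes had between 400 and 15564 counts in each library. Macrophage markers were present, but some other lineage lists had higher sums, and sums of different marker genes do not measure shares of cells. The summed CPM (counts scaled to the library total) of 12 macrophage genes was 497 to 1163 in the leukemic and 1239 to 4574 in the non-leukemic libraries. That of 13 mast cell and basophil genes was 9282 to 34118 in the leukemic and 3677 to 8065 in the non-leukemic libraries. For 12 neutrophil genes it was 12681 to 26849 in the leukemic and 28214 to 65085 in the non-leukemic libraries. Female leukemic replicate 2 had the lowest macrophage sum and the highest mast cell and basophil sum of the leukemic libraries. Male non-leukemic replicate 3 had the highest macrophage sum of all 12 libraries, and the lowest non-leukemic sum of 18 red cell genes other than globins, 2677 CPM against 4369 to 8265 CPM in the other 5. Ly6g, a neutrophil antigen excluded by the sort, was at 12.5 ± 7.31 CPM in the leukemic and 47.9 ± 19.4 CPM in the non-leukemic libraries (SD, n = 6 each). Ly6c was excluded too, yet Ly6c2 was at 121 to 410 CPM in the leukemic and 173 to 450 CPM in the non-leukemic libraries. Ly6c1 was at 1.55 CPM or less in every library. In sorted bulk samples such as these, fewer cells of a type and less RNA per cell cannot be told apart.

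The first comparison, leukemic against non-leukemic, asks which factors follow red cell transcripts and which are kept up. Klf1, Gata1, Gfi1b, Tal1 and Zfpm1 fell in the leukemic libraries, Runx1 rose, and Nfe2, Lmo2, Ldb1 and Bcl11a did not pass the test. Mean CPM in the leukemic libraries was 18.1% of the non-leukemic mean for Klf1, 33.3% for Gata1, 33.9% for Gfi1b, 39.7% for Tal1 and 44.9% for Zfpm1. It was 87.8% for Bcl11a, 98.5% for Nfe2, 101% for Lmo2, 123% for Ldb1 and 178% for Runx1. The same figure was 8.32% for the summed red cell genes other than globins and 4.76% for the 4 adult globin genes, so no factor was as low as the transcripts of the cells it helps to build. With edgeR's quasi-likelihood test, adjusted over all genes tested, 6 of the 10 passed, where 17.9% of all genes did. The 5 that fell compare with 9.20% of all genes lower in the leukemic libraries, and the 1 that rose with 8.71% higher. The median log2 fold change was -0.75 over the 10 and -0.01 over all genes tested.

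**Figure D1:**
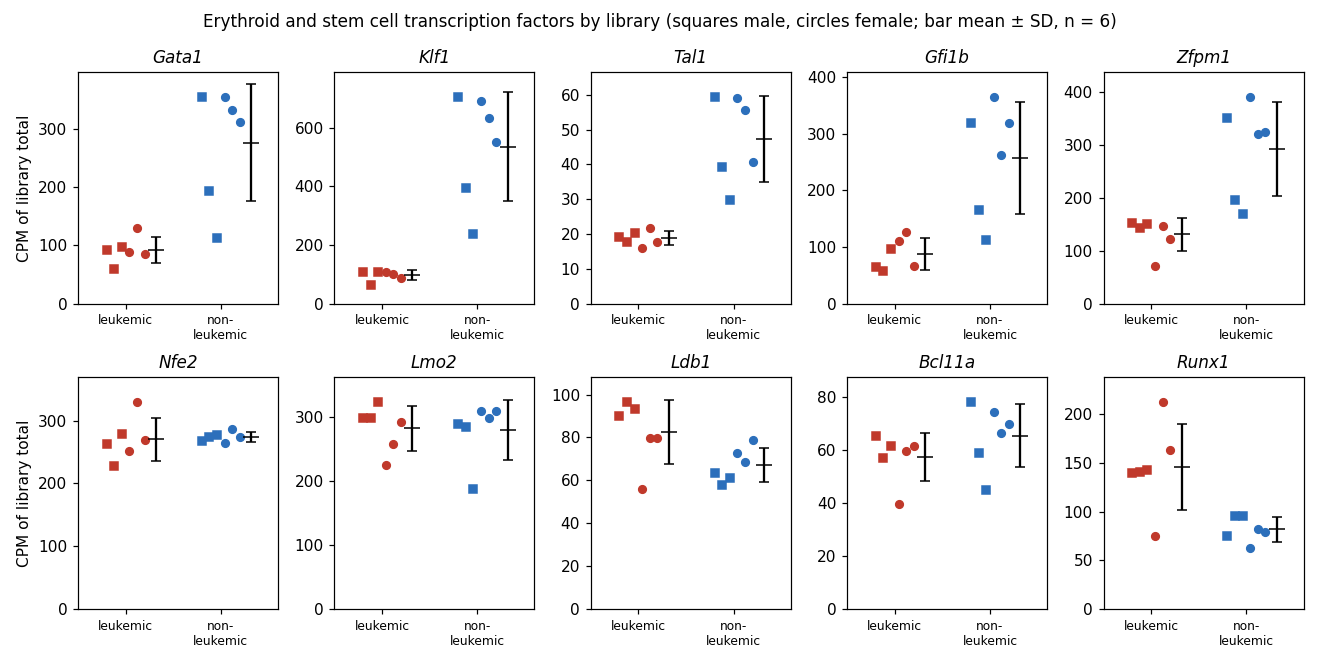
CPM of each of the 10 factors in the 6 leukemic (left, red) and 6 non-leukemic (right, blue) libraries, with squares for male and circles for female libraries and the mean ± SD beside them. The leukemic points of Klf1, Tal1 and Zfpm1 all lie below the non-leukemic ones, while Nfe2 and Lmo2 lie at the same height in both conditions.

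The promoters of Gata1, Klf1, Gfi1b and Tal1, factors that fell together, are shown because GATA1 and KLF1 are known to act on one another's genes and on their own. Capitals mark a GATA site, spelled AGATAA or TGATAA, or a CACC-type box, spelled CCNCNCCC, on either strand. The sequences are RefSeq promoters of build GRCm38.p6, from 250 bases before to 50 after the start. The counts were made on GRCm39.
Gata1 promoter, chrX:7967861-7968160, minus strand: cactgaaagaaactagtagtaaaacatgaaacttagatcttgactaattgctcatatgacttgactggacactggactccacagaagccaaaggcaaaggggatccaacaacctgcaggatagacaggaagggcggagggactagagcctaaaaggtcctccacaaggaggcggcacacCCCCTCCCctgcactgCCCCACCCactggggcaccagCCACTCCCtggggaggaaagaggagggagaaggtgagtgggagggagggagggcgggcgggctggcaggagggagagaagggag
Klf1 promoter, chr8:84901732-84902031, plus strand: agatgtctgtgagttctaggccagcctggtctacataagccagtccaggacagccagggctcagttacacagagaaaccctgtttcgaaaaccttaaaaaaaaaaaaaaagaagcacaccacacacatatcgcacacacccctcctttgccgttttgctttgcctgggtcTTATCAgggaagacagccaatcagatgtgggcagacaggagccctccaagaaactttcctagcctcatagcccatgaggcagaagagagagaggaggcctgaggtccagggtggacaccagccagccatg
Gfi1b promoter, chr2:28621933-28622232, minus strand: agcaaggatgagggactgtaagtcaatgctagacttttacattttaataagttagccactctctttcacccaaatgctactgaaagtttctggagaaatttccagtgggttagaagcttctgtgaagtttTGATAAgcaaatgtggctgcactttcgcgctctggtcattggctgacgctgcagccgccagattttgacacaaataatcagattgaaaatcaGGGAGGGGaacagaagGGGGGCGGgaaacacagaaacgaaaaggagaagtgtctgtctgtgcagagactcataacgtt
Tal1 promoter, chr4:115056176-115056475, plus strand: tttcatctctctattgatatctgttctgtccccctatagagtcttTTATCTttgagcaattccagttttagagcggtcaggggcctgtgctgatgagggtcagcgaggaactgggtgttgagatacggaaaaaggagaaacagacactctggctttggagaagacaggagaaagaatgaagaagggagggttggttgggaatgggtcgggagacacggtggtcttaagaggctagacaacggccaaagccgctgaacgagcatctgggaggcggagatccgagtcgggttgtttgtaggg
The Klf1 promoter held 1 GATA site, read here as TTATCA, at position -80 from the start, and no CACC-type box. Gfi1b held 1 GATA site, TGATAA, at -120, and 2 CACC-type boxes, and the Tal1 promoter shown held 1 GATA site, TTATCT, at -205. Gata1 held 3 CACC-type boxes and no GATA site in this window. A second Tal1 promoter, not shown, held 4 CACC-type boxes and no GATA site, and Zfpm1, which also fell, likewise. Of the factors that did not pass or rose, Ldb1 held 2 GATA sites in 1 of its 3 promoters, and the Bcl11a and Runx1 promoters held none. No GATA site overlapped a CACC-type box. Of 32851 promoters in the table, 18.6% held such a GATA site and 49.5% such a box, so a match is common and is a description only. Promoters of 8 of the 10 factors were in the table, those of the factors shown and of Zfpm1, Ldb1, Bcl11a and Runx1. Nfe2 and Lmo2 had no promoter there. The sequence TGTGGT, a RUNX site searched on both strands, was in 16.8% of all promoters, and occurred 2 times in the first of the 2 Runx1 promoters and 1 time in that of Klf1.

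Klf1, the activator of globin, heme and membrane genes, had the most negative fold change of the 10. It ranged from 65.4 to 109 CPM with a median of 105 in the leukemic libraries, and from 237 to 705 CPM with a median of 591 in the non-leukemic libraries. The groups did not overlap. Of the 10 factors 3 had all leukemic libraries below all non-leukemic ones, as had 3.63% of all genes, and 0 had them above, as had 5.05% (8.68% in either direction). The log2 fold change was -2.51 ± 0.23 (SE, edgeR adjusted p = 1.95e-05). Among the 18 red cell genes, the fold changes ran from -4.60 to -2.54, and the one nearest to that of Klf1 was Epor, the erythropoietin receptor, with -2.54 ± 0.33. All 18 fell, as did all 4 globin genes, with medians of -3.65 and -4.43.

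Gata1 had 59.5 to 129 CPM with a median of 90.8 in the leukemic libraries, and 112 to 355 CPM with a median of 322 in the non-leukemic libraries. Its groups overlapped through 1 library of each condition: female leukemic replicate 2, at 129 CPM, lay above male non-leukemic replicate 3, at 112 CPM. The log2 fold change was -1.63 ± 0.23 (SE, edgeR adjusted p = 0.000360). Gfi1b behaved alike in both respects. It had 58.6 to 127 CPM with a median of 81.8 in the leukemic libraries, and 113 to 365 CPM with a median of 290.1 in the non-leukemic libraries. Its log2 fold change was -1.60 ± 0.24 (edgeR adjusted p = 0.000677), and the same pair of libraries made its groups overlap.

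Tal1, the helix-loop-helix factor of the complex, had 16.0 to 21.8 CPM with a median of 18.5 in the leukemic libraries, and 29.9 to 59.4 CPM with a median of 48.0 in the non-leukemic libraries, without overlap. It fell by 1.40 ± 0.16 on the log2 scale (SE, edgeR adjusted p = 9.92e-05). Zfpm1, which encodes FOG1, had 70.4 to 152 CPM with a median of 145 in the leukemic libraries and 168 to 390.2 CPM with a median of 322 in the non-leukemic libraries, again without overlap. It fell by 1.23 ± 0.21 (edgeR adjusted p = 0.00162). In the leukemic group female replicate 1 was the low library for Zfpm1, at 70.4 CPM, and the other 5 lay between 123 and 152 CPM.

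LMO2 and LDB1 are the bridging members of the same complex, and neither of their genes passed. Lmo2 had 225 to 324 CPM with a median of 296 in the leukemic libraries, and 188 to 309 CPM with a median of 294 in the non-leukemic libraries. Male non-leukemic replicate 3 was the low one at 188 CPM, and the other 5 lay between 285 and 309 CPM. The log2 fold change of Lmo2 was -0.06 ± 0.11 (SE, edgeR adjusted p = 0.799). Ldb1 had 55.7 to 96.5 CPM with a median of 84.8 in the leukemic libraries and 57.8 to 78.9 CPM with a median of 66.0 in the non-leukemic libraries. Its log2 fold change was 0.21 ± 0.12 (edgeR adjusted p = 0.252). All leukemic libraries but female replicate 1 were above every non-leukemic library for Ldb1, and without that library it passed, at 0.30 (edgeR adjusted p = 0.0401). Exons of Ldb1 and Pprc1, a gene on the opposite strand, share 177 bases in GENCODE M21, and the amplification kit does not mark strand.

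Nfe2 encodes the large subunit of a factor that acts on globin genes and in platelet formation. It had 227 to 329.5 CPM with a median of 266 in the leukemic libraries and 265 to 286 CPM with a median of 274 in the non-leukemic libraries. The log2 fold change was -0.10 ± 0.10 (SE, edgeR adjusted p = 0.538). Its spread over the non-leukemic libraries was narrow, with a coefficient of variation of 2.7% against 36.3% for Gata1 and 34.6% for Klf1 in the same libraries. Bcl11a, a repressor of embryonic and fetal globin genes, had 39.7 to 65.0 CPM with a median of 60.5 in the leukemic libraries and 45.0 to 78.0 CPM with a median of 68.0 in the non-leukemic libraries. Its log2 fold change was -0.26 ± 0.13 (edgeR adjusted p = 0.203). A p that misses the threshold does not show that these 4 genes were at the same level in both conditions.

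Runx1, the DNA-binding subunit of core binding factor, was the factor that rose. It had 74.9 to 213 CPM with a median of 142 in the leukemic libraries, and 62.8 to 95.9 CPM with a median of 80.7 in the non-leukemic libraries. The groups overlapped through female leukemic replicate 1, at 74.9 CPM, since the other 5 leukemic libraries had 140.0 CPM or more. The log2 fold change was 0.74 ± 0.19 (SE, edgeR adjusted p = 0.0161). Cbfb, the partner subunit of core binding factor, rose too, with 208 ± 45.6 CPM in the leukemic and 97.1 ± 21.2 CPM in the non-leukemic libraries (SD, n = 6 each) and a log2 fold change of 1.01 ± 0.12 (edgeR adjusted p = 0.000100).

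**Figure D2:**
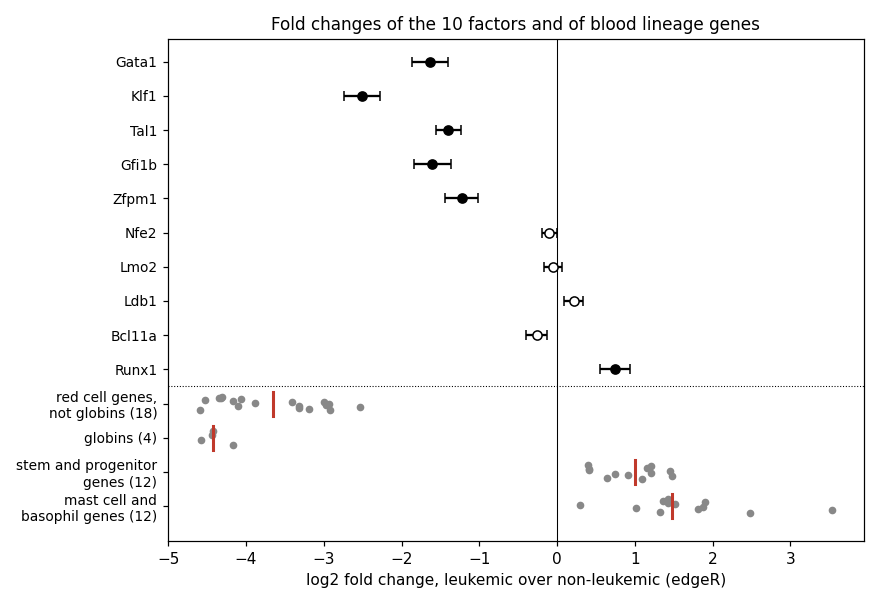
Log2 fold change, leukemic over non-leukemic, of the 10 factors (top, mean ± SE, filled where the edgeR adjusted p passed 0.05) and of the single genes of 4 lineage lists (grey, with the list's median in red). The factors run from -2.51 for Klf1 to 0.74 for Runx1, all to the right of the red cell genes. Runx1 lies within the ranges of the stem and progenitor genes (0.39 to 1.47) and of the mast cell and basophil genes (0.30 to 3.53), and the other factors lie to the left of both.

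The factors were then set against red cell transcripts library by library, as counts of a factor per 1000 counts of the 18 red cell genes other than globins. In the non-leukemic libraries this ratio varied less than the CPM for the 5 factors that fell, though for Tal1 by little. For each of the other factors it varied more than the CPM, among them Bcl11a, with coefficients of variation of 23.1% against 18.4%. Klf1 had 85.0 to 101 counts per 1000 in the 6 non-leukemic libraries, a coefficient of variation of 7.05%. Gata1 had 41.8 to 53.2 (9.32%), Gfi1b 37.9 to 50.9 (12.5%) and Zfpm1 42.4 to 62.9 (14.3%), and Tal1 had 6.28 to 11.2 (19.97%). The coefficients of variation of their CPM in the same libraries were 34.6% for Klf1, 36.3% for Gata1, 38.3% for Gfi1b, 30.5% for Zfpm1 and 26.1% for Tal1. In male non-leukemic replicate 3, where Gata1 and Klf1 were at their lowest non-leukemic CPM, the Gata1 ratio was the lowest non-leukemic one at 41.8, and the Klf1 ratio of 88.6 lay within the range of the others.

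In the leukemic libraries the ratios were higher for every factor, without overlap. The red cell sum itself was 349.7 to 686 CPM in the leukemic and 2677 to 8265 CPM in the non-leukemic libraries. A gene of constant CPM would therefore separate too, so the lack of overlap says nothing particular about the factors. Klf1 had 157 to 242 counts per 1000 red cell counts in the leukemic libraries, against 85.0 to 101 in the non-leukemic libraries, and Gata1 had 135 to 281 against 41.8 to 53.2. Gfi1b had 94.5 to 276 in the leukemic libraries against 37.9 to 50.9 in the non-leukemic libraries. Among the leukemic libraries the ratio varied less than the CPM for Klf1 (14.7% against 17.6%) and more for Gata1 (25.5% against 24.4%), Gfi1b (35.8% against 32.2%), Zfpm1 (30.8% against 23.97%) and Tal1 (20.3% against 10.9%). Scaling every library by its red cell counts and testing all genes with edgeR gave log2 fold changes of 1.14 ± 0.22 for Klf1 (SE, adjusted p = 7.71e-05), 2.03 ± 0.23 for Gata1 (adjusted p = 1.34e-07), 2.07 ± 0.26 for Gfi1b, 2.24 ± 0.28 for Tal1 and 2.44 ± 0.27 for Zfpm1. The other 5 lay between 3.36 for Bcl11a and 4.29 for Runx1, near or above the median of 3.56 over all genes. All 10 were called higher on this scale, but so were 95.4% of all genes, and 95.6% were called in either direction, so the calls say nothing particular about the factors. What the scale orders is their distance from red cell transcripts, and Klf1 was nearest. Scaling by 1 sum per library shifts all genes by nearly the same amount. The order of the 10 was therefore that of the first comparison again and is not a separate result. Scaled by the globin genes in place of the other red cell genes, Klf1 was at 1.997 and Gata1 at 2.90. Klf1 was again the lowest of the 10, for the same reason.

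**Figure D3:**
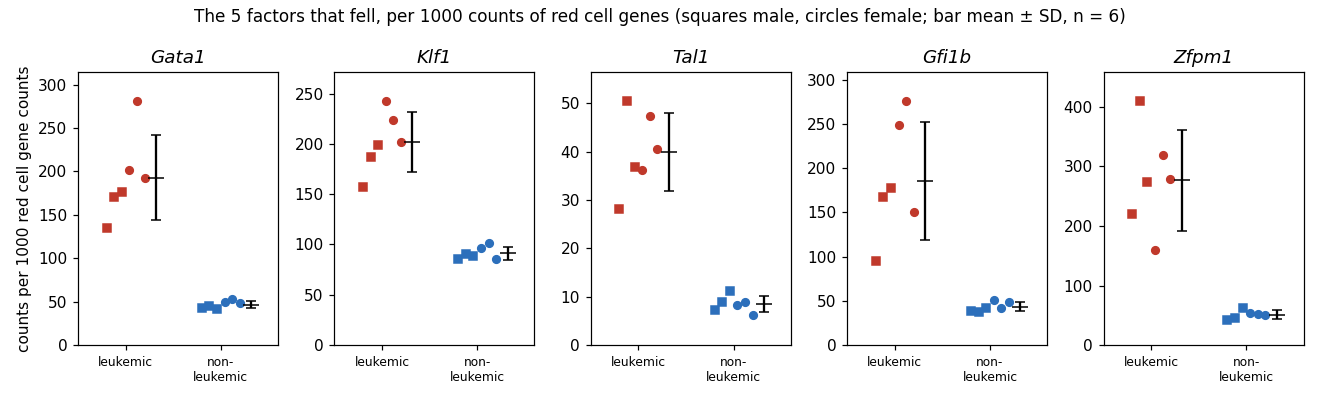
Counts of the 5 factors that fell per 1000 counts of 18 red cell genes, in the leukemic (left, red) and non-leukemic (right, blue) libraries, with mean ± SD (n = 6 each). The non-leukemic ratios of Gata1 stay between 41.8 and 53.2, and the leukemic ones spread between 135 and 281.

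The relation to lineage lists was measured on log2 CPM within each condition, since the conditions form separate clusters, over 220 relations of 10 factors with 11 lists. With 6 libraries the smallest possible exact two-sided p for Pearson's r is 0.00139, and none of the 220 passed after adjustment by either coefficient (lowest adjusted p = 0.165 for Pearson and 0.333 for Spearman), while 33 had an unadjusted Pearson p under 0.05. In the non-leukemic libraries Bcl11a had the highest r with the red cell genes other than globins, 0.996 (exact permutation p = 0.00139, n = 6), and rho = 1.00 (exact permutation p = 0.00278). Without the 2 libraries farthest from the median, male non-leukemic replicates 2 and 3, r was 0.968. Gata1 and Klf1 had r = 0.985 and 0.987 (exact permutation p = 0.00417 each, n = 6), rho = 0.943 each (exact permutation p = 0.0167), and r = 0.755 and 0.735 without those 2 libraries. Gfi1b, Zfpm1 and Tal1 had r of 0.966, 0.947 and 0.905 (exact permutation p = 0.00694, 0.00972 and 0.00694, n = 6), rho of 0.943 each, and r of 0.505, 0.557 and 0.547 without the 2 libraries, so these relations rest in large part on them. The sum of 12 neutrophil genes, 28214 to 65085 CPM in the non-leukemic libraries and highest in the same male replicates 2 and 3, ran the opposite way. Its r was -0.97 with Gfi1b, -0.94 with Zfpm1, -0.92 with Bcl11a and -0.90 with Gata1 (exact permutation p = 0.00556, 0.00833, 0.00833 and 0.0167, n = 6), with rho of -0.83, -0.83, -0.77 and -0.60 (exact permutation p = 0.0583, 0.0583, 0.103 and 0.242). Without those 2 libraries r was -0.90 for Gfi1b, -0.51 for Zfpm1, -0.57 for Bcl11a and 0.0040 for Gata1. The relation to red cell genes cannot be told apart from one to neutrophil genes in these 6 libraries.

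Nfe2 and Runx1 had a negative r with the red cell genes in the non-leukemic libraries, r = -0.38 for Nfe2 (exact permutation p = 0.468, n = 6; rho = -0.66, exact permutation p = 0.175) and r = -0.79 for Runx1 (exact permutation p = 0.0639; rho = -0.89, exact permutation p = 0.0333). Without the 2 farthest libraries they were -0.76 and -0.44. Lmo2 and Ldb1 had r of 0.880 and 0.541 (exact permutation p = 0.05 and 0.268, n = 6), with rho of 0.600 and 0.543 (exact permutation p = 0.242 and 0.297). Without those 2 libraries their r was -0.61 and -0.64. The globin sum moved apart from the factors in the same libraries. It was 13348 CPM in male non-leukemic replicate 3 and 10837 CPM in male replicate 1, whereas Gata1 was 112 and 355 CPM there. The r of Gata1 with the globin sum was -0.11 (exact permutation p = 0.867, n = 6; rho = -0.09, exact permutation p = 0.919), but 0.922 without the 2 farthest libraries, male replicate 1 and female replicate 3.

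**Figure D4:**
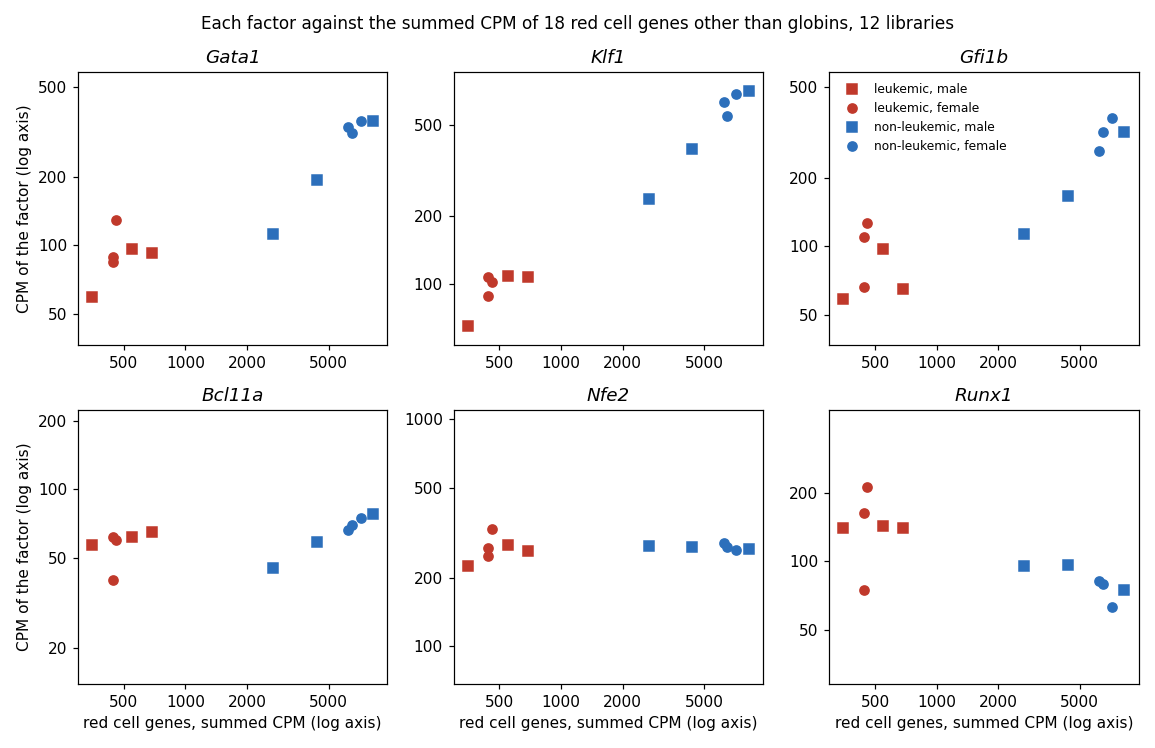
CPM of 6 factors against the summed CPM of 18 red cell genes other than globins, both on log axes, in 6 leukemic (red) and 6 non-leukemic (blue) libraries. Gata1, Klf1 and Gfi1b rise with the red cell sum among the non-leukemic libraries, Bcl11a does so over a narrower range of 45.0 to 78.0 CPM, and Nfe2 stays between 265 and 286 CPM.

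In the leukemic libraries the r with the red cell genes other than globins was 0.762 for Klf1 (exact permutation p = 0.0694, n = 6; rho = 0.886, exact permutation p = 0.0333) and 0.491 for Gata1 (exact permutation p = 0.311; rho = 0.771, exact permutation p = 0.103). It was 0.399 for Tal1, 0.383 for Bcl11a, 0.273 for Zfpm1 and 0.057 for Gfi1b (exact permutation p = 0.429, 0.385, 0.492 and 0.926, n = 6), with rho of 0.600, 0.714, 0.771 and 0.257 (exact permutation p = 0.242, 0.136, 0.103 and 0.658). Without the 2 farthest libraries, male leukemic replicates 1 and 2, Klf1 was at 0.555, Gata1 at 0.119, Tal1 at 0.502, Bcl11a at 0.432, Zfpm1 at 0.563 and Gfi1b at 0.130. The red cell sum spanned 349.7 to 686 CPM in these libraries, against 2677 to 8265 CPM in the non-leukemic ones.

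With 12 stem and progenitor genes, Zfpm1, Ldb1 and Bcl11a had the highest r in the leukemic libraries, at 0.976, 0.957 and 0.944 (exact permutation p = 0.0250, 0.00833 and 0.118, n = 6), and rho of 0.657, 0.886 and 0.371 (exact permutation p = 0.175, 0.0333 and 0.497). They were 0.913, 0.656 and 0.604 without female leukemic replicate 1, which was low in all of them, and male leukemic replicate 2. Ldb1, Zfpm1 and Bcl11a ran opposite to the neutrophil sum, with r of -0.93, -0.78 and -0.65 (exact permutation p = 0.00278, 0.0347 and 0.161, n = 6). Their rho was -0.94, -0.60 and -0.31 (exact permutation p = 0.0167, 0.242 and 0.564). Without the same 2 libraries r was -0.999, -0.68 and -0.56. Lmo2 ran opposite to the neutrophil sum too, with r of -0.85 (exact permutation p = 0.0292, n = 6; rho = -0.89, exact permutation p = 0.0333), and -0.81 without those 2 libraries. Tal1 and Runx1 had weaker negative r, -0.32 and -0.37 (exact permutation p = 0.535 and 0.525). For Gata1, Klf1, Nfe2 and Gfi1b the r with that sum was positive. The relations to both lists cannot be told apart in these 6 libraries. Female leukemic replicate 2 had the highest leukemic CPM of Gata1, Tal1, Nfe2, Gfi1b and Runx1. It also had the highest leukemic sums of mast cell and basophil, megakaryocyte (793 CPM) and B cell genes (1238 CPM). Its T and NK cell, plasmacytoid dendritic cell and macrophage sums were the lowest of the leukemic libraries, so it does not single out 1 lineage. Nfe2 had its largest r with the T and NK cell sum, -0.95 (exact permutation p = 0.0153, n = 6; rho = -0.83, exact permutation p = 0.0583), which was -0.41 without female leukemic replicate 2 and male leukemic replicate 2. Its r with the megakaryocyte sum was 0.852 (exact permutation p = 0.0236, n = 6; rho = 0.657, exact permutation p = 0.175), and 0.809 without female leukemic replicates 2 and 3. The r with the mast cell and basophil sum was 0.813 for Nfe2 (exact permutation p = 0.0750, n = 6; rho = 0.600, exact permutation p = 0.242) and 0.758 for Gfi1b (exact permutation p = 0.0361; rho = 0.771, exact permutation p = 0.103). Without the 2 farthest libraries, female leukemic replicate 2 and male leukemic replicate 1, these were 0.576 and 0.482. Gata1 had 0.732 (exact permutation p = 0.142; rho = 0.314, exact permutation p = 0.564), and 0.710 without them. The r of Gata1 was 0.745 with the megakaryocyte sum (exact permutation p = 0.0736, n = 6; rho = 0.486, exact permutation p = 0.356). It was -0.87 with the T and NK cell sum (exact permutation p = 0.0611; rho = -0.60, exact permutation p = 0.242). Without the 2 libraries farthest from the median of each list, these were 0.962 and 0.678.

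Other blood lineages differed between the same libraries. Of 12 tested mast cell and basophil genes 9 rose and 0 fell, the median being 1.47 on the log2 scale, and the summed CPM was 16013 ± 9176 in the leukemic and 5166 ± 1522 in the non-leukemic libraries (SD, n = 6 each). Cd200r3, Cyp11a1 and the IgE receptor gene Fcer1a rose by 1.81, 1.88 and 1.90, as did Gzmb by 3.53, a granzyme that T and NK cells also express. Of 12 stem and progenitor genes 9 rose and 0 fell, with a median of 1.00, among them Hoxa9 (1.45 ± 0.20), Flt3 (1.15 ± 0.19), Cd34 (1.21 ± 0.21) and Angpt1 (0.91 ± 0.16). Hoxa9 was at 22.2 to 39.6 CPM in the leukemic and 8.09 to 14.7 CPM in the non-leukemic libraries. All 12 T and NK cell genes rose, with a median of 3.12, and 7 of 12 neutrophil genes fell, with a median of -1.22.

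Megakaryocyte genes moved less, with 2 of 11 tested rising, Itga2b (0.72 ± 0.21) and Itgb3 (0.81 ± 0.24), and 1 falling, Gp9 (-1.74 ± 0.28). B cell genes did not pass in any of 12 cases, with a median of -0.27. Of 10 plasmacytoid dendritic cell genes 3 fell, Siglech, Ccr9 and Lefty1, and the median was 0.07. Of 9 eosinophil genes 2 fell, Ccr3 and Ear2, and the median was -0.18. Of 12 macrophage genes 7 fell, led by Cd163, Mrc1, Vcam1 and Adgre1, with a median of -1.17. The part of these lineages in the levels of the 10 factors was not tested.

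**Figure D5:**
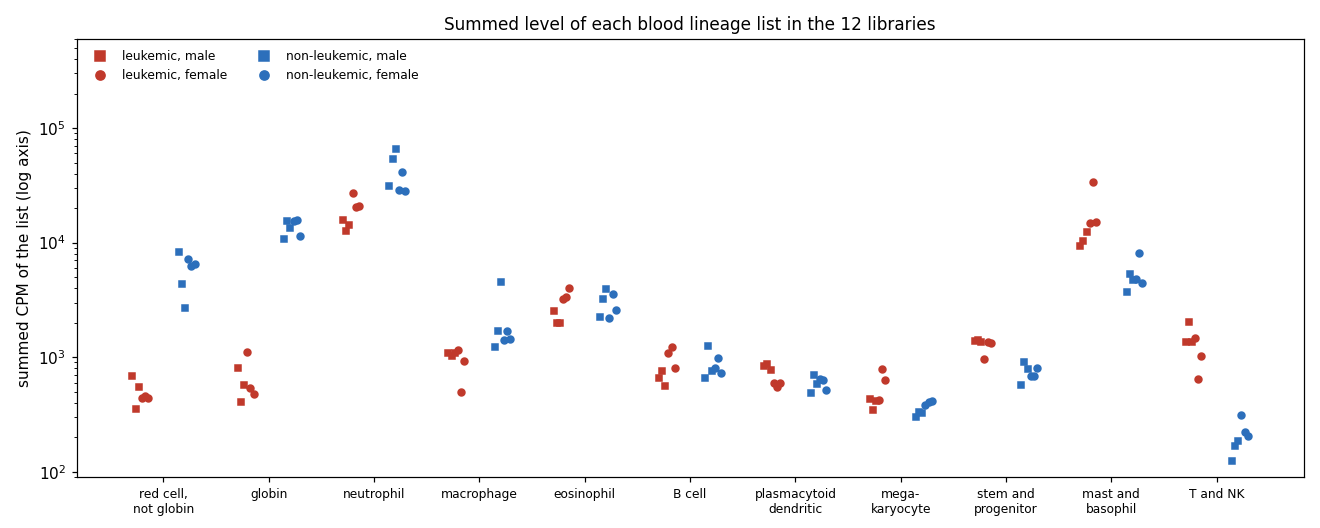
Summed CPM of each lineage list on a log axis in the 6 leukemic (red, left of each pair) and 6 non-leukemic (blue, right) libraries. Red cell and globin sums are lower in every leukemic library, the mast cell and basophil, stem and progenitor, and T and NK sums are higher in every one, and the B cell and eosinophil sums overlap.

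Genes for proteins that work with these factors were described from a list of known partners. Of its 22 genes, among them the small Maf proteins, E proteins and the NuRD and CoREST repressor complexes, 2 rose, 2 fell and 18 did not pass, with a median log2 fold change of 0.01, and 17.9% of all genes passed in the same comparison. Gata2, the GATA factor of stem cells, mast cells and early progenitors that GATA1 is known to replace in red cell precursors, was at 248 to 699.7 CPM in the leukemic and 119.5 to 193 CPM in the non-leukemic libraries, without overlap. It rose by 1.35 ± 0.20 on the log2 scale (SE, edgeR adjusted p = 0.000531), opposite to Gata1, and was highest in female leukemic replicate 2. Ssbp3, which stabilises LDB1, fell by 0.86 ± 0.23 and the small Maf gene Mafg by 0.48 ± 0.13.

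Of 20 related factors 7 rose, 4 fell and 9 did not pass, with a median of 0.27. Klf3, a repressor of the KLF family that KLF1 is known to activate, was at 49.4 ± 4.21 CPM in the leukemic and 161 ± 41.8 CPM in the non-leukemic libraries (SD, n = 6 each), and fell by 1.77 ± 0.16 (edgeR adjusted p = 1.47e-05). Klf13 fell by 0.80 ± 0.11. Bcl11b, a T cell factor and the paralogue of Bcl11a, rose by 2.62 ± 0.43. Hlf, a stem cell factor that is not a paralogue of any of the 10, rose by 0.92 ± 0.18. Gfi1, the paralogue of Gfi1b known from neutrophils and stem cells, had a log2 fold change of 0.06 (edgeR adjusted p = 0.857).

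Likeness to other genes was described as Pearson's r of log2 CPM after centring on the mean of each sex and condition group, over 12 libraries and 9481 genes, which share their library's depth and cell mix. Klf1 was most like Fech, the last enzyme of heme synthesis (0.986), Ctse (0.979) and Gclm (0.979). Gata1 was most like Selenbp1 (0.981), Piga (0.980) and Suox (0.976), and Bcl11a most like Prkar2b (0.993), Stom, which encodes the red cell membrane protein stomatin (0.990), and Yod1 (0.989). Zfpm1 was most like Ctbp1 (0.984), which encodes a corepressor known to bind FOG1, Usp7 and Hdgf. Of these, Fech, Ctse, Gclm, Selenbp1, Suox, Prkar2b, Stom, Yod1, Ctbp1, Usp7 and Hdgf also fell in the leukemic libraries, and Piga did not pass (-0.64, edgeR adjusted p = 0.107). The nearest genes were Rnf187, Reep4 and Gdpd1 for Tal1, Gpc4, Psmc2 and Mrpl38 for Gfi1b, and Nars, Pofut1 and Rrp8 for Nfe2. They were Hnrnpdl, Mios and Srsf6 for Lmo2, Mcm3ap, Limd1 and Heg1 for Ldb1, and Ppp3ca, Usp42 and Arap3 for Runx1. Of those of Tal1 and Gfi1b, Rnf187, Gdpd1, Gpc4 and Psmc2 fell. Reep4 (-0.19, edgeR adjusted p = 0.208) and Mrpl38 (-0.004, edgeR adjusted p = 0.985) did not pass. Of those of Nfe2, Lmo2, Ldb1 and Runx1 only Heg1 passed, and it rose (0.47, edgeR adjusted p = 0.0230). Of all genes tested, 9.20% were lower in the leukemic libraries.

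Among the factors themselves, on the same centred scale, Gata1 ran with Klf1 (0.946), Tal1 (0.882) and Gfi1b (0.871), and Zfpm1 with Bcl11a (0.945). Runx1 ran with Ldb1 (0.785) and Nfe2 (0.697), and its r was -0.01 with Gata1 and -0.28 with Klf1.

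The effect of leukemia was also estimated in each sex. Klf1 had a log2 fold change of -2.64 ± 0.34 in females and -2.38 ± 0.33 in males (SE, edgeR adjusted p = 0.00114 and 0.00135). Tal1 passed in both sexes too, with -1.48 ± 0.24 in females and -1.31 ± 0.24 in males. Gata1 had -1.72 ± 0.33 in females and -1.55 ± 0.33 in males (edgeR adjusted p = 0.00932 and 0.0157), and Gfi1b had -1.63 ± 0.36 in females and -1.58 ± 0.36 in males (edgeR adjusted p = 0.0168 and 0.0210). In males the Gata1 call was lost without male leukemic replicate 1 or 2 (edgeR adjusted p = 0.0515 and 0.0834 without each) and when only the 6 male libraries were fitted (-1.52, edgeR adjusted p = 0.0563). The Gfi1b call in males was lost without male leukemic replicate 1 or 2 or male non-leukemic replicate 1, and that in females without female leukemic replicate 3 or female non-leukemic replicate 1 or 3, with edgeR adjusted p between 0.0552 and 0.105.

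Zfpm1 passed in females (-1.63 ± 0.26, edgeR adjusted p = 0.00385) and missed in males (-0.83 ± 0.26, edgeR adjusted p = 0.0788). It passed in males without female leukemic replicate 1 or male non-leukemic replicate 3 (edgeR adjusted p = 0.0329 and 0.0427). Runx1 passed in females (0.98 ± 0.26, edgeR adjusted p = 0.0403) and missed in males (0.51 ± 0.26, edgeR adjusted p = 0.287), and its call in females was lost in 9 of the 12 fits that each left out 1 library, with edgeR adjusted p up to 0.153, and when only the 6 female libraries were fitted (0.99, edgeR adjusted p = 0.117). In females 8.43% of all genes were called, 4.59% lower and 3.84% higher, and in males 7.37%, 4.04% lower and 3.34% higher. The difference between the sexes, tested as an interaction in edgeR, passed for 0 of 15758 genes, of which 925 had an unadjusted p under 0.05. It also passed for 0 genes with RLE size factors, with the replicate block and without each library in turn. The lowest unadjusted interaction p among the 10 were those of Ldb1 (0.0241) and Zfpm1 (0.0487, edgeR adjusted p = 0.819 for both).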

How the data were processed

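The authors deposited raw counts per gene, 1 column per library and no normalization, and this unit was read from the values. The submitters' processing notes name fastp 0.23.1, STAR 2.7.9a, Subread 2.0.1, featureCounts and the mouse build GRCm39, with no order or settings. Per the labels' protocols, 1 ng of RNA was pre-amplified with a SMARTer Ultra Low Input kit and made into NexteraXT libraries. This chemistry marks no strand and carries no molecular identifiers, so reads of overlapping genes cannot be separated by strand and counts are not independent molecules. Columns were matched to samples by library name.

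CPM are counts scaled to each library's total. Genes were filtered with filterByExpr over the 4 groups, scaled by TMM and tested with edgeR 4.0.16 in R 4.3.3 (quasi-likelihood, robust), with sex as a term, Benjamini-Hochberg adjustment over all genes and a threshold of 0.05. The SE is the log2 fold change divided by the square root of F. A further fit replaced library sizes by the summed red cell counts. The test was checked on simulated data. Alternatives were RLE size factors, DESeq2 1.42.0, limma-voom (limma 3.58.1), other filters, no sex term, a replicate block and left-out libraries. Named were all 10 factors, the 4 genes of each list with the lowest p, the 3 genes most like each factor and the genes of the sort gate. Other list genes are named as the members of a small count or for comparison, chosen after their values were seen. The factors and lists were chosen with earlier results of these data known. The symbol Ahsp was not matched, which left 18 red cell genes of 19. No library was a copy of another (lowest chi-square per degree of freedom within a group 22.6).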

Additional observations from a re-analysis of the deposited data

Results flagged for a closer look

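Of 46 sets of 6 libraries examined, 8 had a library far from the other 5 by Dixon's criterion, where chance gives about 1 in 20. Zfpm1 was at 70.4 CPM in female leukemic replicate 1, with the next library at 123 CPM, and Bcl11a at 39.7 CPM in the same library, with the next at 57.1 CPM. That library also had the lowest leukemic sums of the partner genes, 1701 CPM against 2900 CPM for the next, and of the stem and progenitor genes, 959 CPM against 1330.2 CPM. Male non-leukemic replicate 3 had 188 CPM of Lmo2, with the next non-leukemic library at 285 CPM, and its macrophage sum was 4574 CPM, with the next at 1704 CPM. Female leukemic replicate 2 had 34118 CPM of mast cell and basophil genes, with the next at 15053 CPM, and 497 CPM of macrophage genes, with the next at 923 CPM. No reason for these values was tested.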

How the results depend on the processing

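The 6 calls among the 10 factors in the comparison over both sexes held, in direction and side of the threshold, under each alternative run. Klf1 lay between -2.69 and -2.28, Gata1 between -1.77 and -1.39 and Runx1 between 0.62 and 0.96 (log2, with adjusted p of Runx1 up to 0.0395 over edgeR, DESeq2 and limma). Leaving out a pair of libraries that stand apart, replicate 1 of the leukemic females and replicate 3 of the non-leukemic males, 2421 genes were higher and 2296 lower, against 1373 and 1449 with all libraries, and Ldb1 passed at 0.30. Lmo2 lay between -0.14 and 0.013 when 1 library was left out, and was positive without female leukemic replicate 2. Scaled by globin counts, 6 genes were lower relative to red cells, against 31. With only the 6 female libraries, 364 genes were higher, against 605. Leaving out 1 library at a time gave 218 to 903 genes higher and 286 to 926 lower in females, and 259 to 987 higher and 254 to 1100 lower in males.

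Values near 0 changed sign when 1 library was left out. In females Ldb1 lay between -0.081 and 0.077 and was positive in 6 of 12 fits. In males Bcl11a lay between -0.27 and 0.10, and Lmo2 between -0.012 and 0.24. The female minus male difference lay between -0.67 and 0.12 for Gata1, -0.53 and 0.22 for Gfi1b, and -0.71 and 0.021 for Klf1. The cause was not tested. The labels do not say whether same-numbered libraries of different groups share more than a number. The 18 correlations of their deviations lay between -0.11 and 0.08. Taken over many genes at once, such correlations cannot show a pairing that touches few genes. With the replicate number as a block, 1231 genes were higher and 1278 lower, Klf1 was at -2.48, Gata1 at -1.59 and Runx1 at 0.73 (edgeR adjusted p = 0.0102), and no call among the 10 changed. With 3 libraries per sex and condition, the effects within a sex are the least precise.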
